A study of Homo sapiens with 6 samples.

Results

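The m6A machinery writes, reads and removes N6-methyladenosine, a methyl group on adenosines inside messenger RNA, and 10 of its genes are described here. They were taken by symbol from the deposited gene table: the writer genes METTL3, METTL14, WTAP, VIRMA and RBM15, the reader genes YTHDF1, YTHDF2, YTHDF3 and YTHDC1, and the eraser gene ALKBH5. All 10 were found among the 20532 genes of the table, and all 10 passed the filter on low counts, which left 13710 genes. Messenger RNA was sequenced from 6 libraries of MDA-MB-231 M3 cells. MDA-MB-231 is an established line from a human breast cancer without hormone receptors, and M3 is a derivative that spreads to bone. In 3 libraries PRMT1, the main enzyme for asymmetric dimethylation of protein arginines, was knocked down with a small interfering RNA (siPRMT1), and the other 3 are controls, which the labels call untreated or control cells without naming a control siRNA. The labels call the libraries biological replicates. No source used here gives the time after transfection, the siRNA sequence or whether the replicates were transfected separately. The p-values therefore rest on a spread that may be technical. In bulk RNA, fewer cells with a transcript and less of it in each cell cannot be told apart.

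In the nucleus, METTL3 carries the catalytic site of the writer and METTL14 binds the RNA beside it, while WTAP, VIRMA and RBM15 hold the complex together and bring it to its sites, usually within a GGACT-like sequence. Readers with a YTH domain then bind the methylated base: YTHDC1 in the nucleus, where it acts on splicing and export, and YTHDF1, YTHDF2 and YTHDF3 in the cytoplasm, where they act on decay and translation. ALKBH5 and FTO remove the methyl group. PRMT1 is known to methylate arginines in the METTL14 and RBM15 proteins, and for RBM15 this marks the protein for ubiquitylation by CNOT4. Read counts measure the transcripts of these genes, not their proteins or the methylation of either RNA or protein.

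PRMT1 itself, the check of the knockdown, had 193, 218 and 181 counts in the siPRMT1 libraries, against 3160, 2991 and 3072 in the control libraries, which is 12.3-fold lower after scaling. Its log2 fold change was -3.62, or -3.93 with library size alone. With the correction for GC content and length described below it was -4.76. Total counts ran from 16968563 to 20545995 in the siPRMT1 libraries and from 17921097 to 19645127 in the control libraries. The labelled cell line fits its defining markers: VIM, the mesenchymal vimentin gene, had at least 35897 counts in every library. The hormone receptor genes ESR1 and PGR had at most 3. CD44, also a marker of the line, had 10535 to 13018 counts in the siPRMT1 libraries and 23184 to 25142 in the control libraries. AXL had 8960 to 10765 counts in the siPRMT1 libraries and 9051 to 10232 in the control libraries. Of markers of other cells, CD3E and CDH5 had at most 1 count in any library and PTPRC at most 4, whereas PECAM1 had 307 to 375 counts in the siPRMT1 libraries and 416 to 464 in the control libraries, and CD68, a lysosomal gene, had 5598 to 6850 counts in the siPRMT1 libraries and 3977 to 4439 in the control libraries. The epithelial gene EPCAM had 309 to 386 counts in the siPRMT1 libraries and 250 to 274 in the control libraries, and CDH1 at most 28 in any library. Of the bone cell genes, BGLAP had 59 to 75 counts in the siPRMT1 libraries and 20 to 25 in the control libraries, CTSK 41 to 50 in the siPRMT1 libraries and 47 to 76 in the control libraries, and ACP5 at most 12 in any library. Mitochondrial genes took 8.64% to 8.74% of the counts in the siPRMT1 libraries and 5.001% to 5.09% in the control libraries. The part of these differences in the results was not tested.

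The promoters of 3 members are shown because their transcripts behaved differently with the TMM scaling explained below. METTL14 fell, its partner METTL3 did not pass the test, and the nuclear reader gene YTHDC1 fell. After the correction for GC content and length, METTL14 and METTL3 were lower and YTHDC1 did not pass. With library size alone, all of them were lower. The promoters cover 250 bases before to 50 bases after the start site annotated by RefSeq on GRCh38.p14. Capitals mark the motifs searched on both strands. The METTL14 promoter lies at chr4:118685142-118685441 on the plus strand, that of METTL3 at chr14:21511291-21511590 on the minus strand and that of YTHDC1 at chr4:68350041-68350340 on the minus strand.
METTL14: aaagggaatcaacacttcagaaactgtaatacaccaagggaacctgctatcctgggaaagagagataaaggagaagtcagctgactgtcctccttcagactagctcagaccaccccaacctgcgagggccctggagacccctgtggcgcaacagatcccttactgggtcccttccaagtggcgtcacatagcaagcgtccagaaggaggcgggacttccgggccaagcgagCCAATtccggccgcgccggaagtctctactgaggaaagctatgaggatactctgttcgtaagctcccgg
METTL3: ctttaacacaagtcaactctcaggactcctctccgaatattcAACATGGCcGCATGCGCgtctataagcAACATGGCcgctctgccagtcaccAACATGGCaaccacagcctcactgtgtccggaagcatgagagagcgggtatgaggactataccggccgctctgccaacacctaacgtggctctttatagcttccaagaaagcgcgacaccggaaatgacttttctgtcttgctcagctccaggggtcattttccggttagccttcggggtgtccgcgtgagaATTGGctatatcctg
YTHDC1: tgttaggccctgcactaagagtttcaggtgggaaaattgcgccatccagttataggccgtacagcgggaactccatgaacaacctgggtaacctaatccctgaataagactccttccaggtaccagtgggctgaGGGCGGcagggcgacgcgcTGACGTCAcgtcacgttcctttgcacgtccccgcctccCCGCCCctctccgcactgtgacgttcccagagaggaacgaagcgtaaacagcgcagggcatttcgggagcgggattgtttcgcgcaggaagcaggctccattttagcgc
The motifs were the GC box GGGCGG, the CCAAT box CCAAT, the NRF1 core GCATGCGC, the YY1-type motif AANATGGC and the cyclic AMP response element TGACGTCA, chosen with these sequences in view. METTL3 held 3 YY1-type motifs, 1 NRF1 core and 1 CCAAT box, METTL14 held 1 CCAAT box alone, and YTHDC1 held 2 GC boxes and 1 cyclic AMP response element. Of 35116 RefSeq promoters of the same length, 45.0% held a GC box, 34.6% a CCAAT box, 6.58% the YY1-type motif, 3.05% the NRF1 core and 1.85% the cyclic AMP response element. Promoters were available for 8 members, but not for YTHDF3 or VIRMA. The NRF1 core was also found in ALKBH5, and the YY1-type motif at start site 2 of WTAP, and both genes fell with TMM scaling. YTHDF1, which did not pass with that scaling, held neither motif. Whether any motif relates to the fold changes was not tested. A match is a description of the letters and not evidence of binding.

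The question here is how the transcripts of the m6A genes differ after loss of PRMT1. Of the 10 members, 8 fell in the siPRMT1 libraries and none rose, while METTL3 and YTHDF1 did not pass (edgeR's quasi-likelihood test, Benjamini-Hochberg adjusted p under 0.05 over all 13710 genes). The background is broad: 89.3% of all tested genes passed, with 45.0% of tested genes lower and 44.3% higher. At least 2-fold falls were found for METTL14 and YTHDF3, against 21.0% of all tested genes that fell and 15.3% that rose by as much, and YTHDC1 lay just short of that at 2.00-fold lower. All siPRMT1 libraries lay below all control libraries for 9 members, METTL3 being the exception, as they did for 45.0% of tested genes, and the groups were apart in either direction for 89.1%. The median log2 fold change of the members was -0.56, beside -0.008 for all tested genes.

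Levels are CPM, the usual per-library rate of read counts, scaled between libraries by edgeR's TMM method, which assumes that most genes keep their share of the library. With scaling by library size alone, the median of all genes moved to -0.33 on the log2 scale, and all 10 members were lower and past the threshold, with a median of -0.88, where 55.4% of all genes were called lower. Fold changes in these libraries also followed the base composition of the transcript: the median log2 fold change was -1.02 over 2256 genes with a GC content below 40% and 0.80 over 4262 genes of 55% or more. When GC content and length were corrected for, 5 of the 8 members that fell were still lower, YTHDF2 and YTHDC1 did not pass and VIRMA was higher. METTL3 and YTHDF1 then passed as lower, which made 7 lower in all, where 80.3% of all genes passed, 42.7% as lower and 37.5% as higher. The corrected median of the members was -0.45, and that of all genes -0.048. Corrected values are printed beside each member for this reason. The trend lies between the same groups as the knockdown, so whether it is technical or biological cannot be told from these counts. The correction may therefore also remove real change. The part of length in the correction was not separated from that of GC content.

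**Figure D1:**
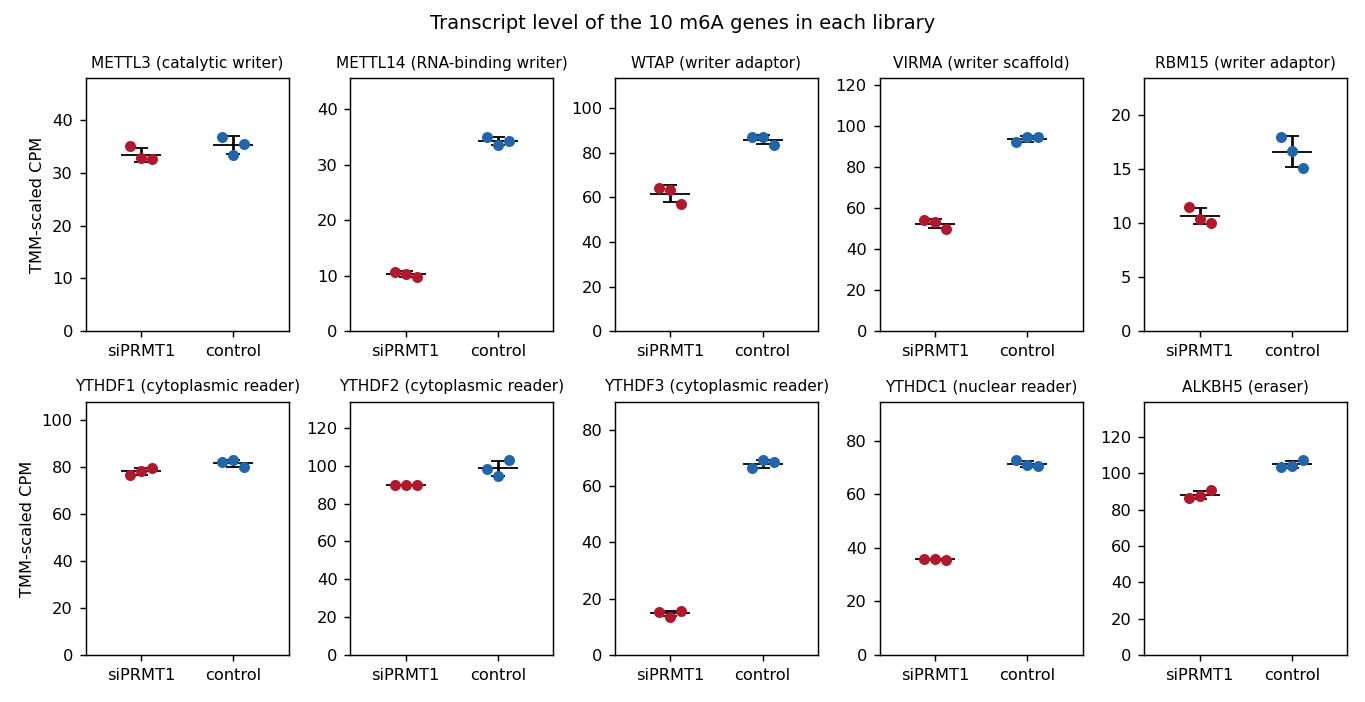
TMM-scaled CPM of each of the 10 m6A genes (vertical axis, from 0) in the 3 siPRMT1 and 3 control libraries; points are libraries, long bars the mean and capped bars the SD. The siPRMT1 libraries lie below all control libraries for 9 genes and overlap with them for METTL3.

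METTL14, which holds the RNA for its catalytic partner, had the largest fall of the 5 writer members with TMM scaling, though RBM15 was lower still after the correction. METTL14 (ENSG00000145388; hg38, chromosome 4, 118685392 to 118715433, plus strand) had 10.7, 10.3 and 9.72 CPM in the siPRMT1 libraries, from 173, 190 and 148 counts, against 35.01, 33.5 and 34.2 CPM in the control libraries, from 767, 670 and 727 counts. All 3 siPRMT1 libraries lay below all 3 control libraries, and the groups were far apart next to their spread. METTL14 fell 3.33-fold, to 10.3 ± 0.509 CPM in siPRMT1 cells, against 34.2 ± 0.765 CPM in control cells (SD, n = 3 each; log2 fold change -1.74, SE 0.0646; edgeR's adjusted p = 2.00e-100, the same test being used for each member). A log2 fold change at or below this value was seen for 7.66% of all tested genes. After the correction for GC content and length the fall was smaller, at -0.57 (adjusted p = 3.92e-11).

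METTL3 (ENSG00000165819; chromosome 14, 21498133 to 21511340, minus strand), whose protein transfers the methyl group, had 35.05, 32.8 and 32.6 CPM in the siPRMT1 libraries and 36.9, 33.4 and 35.4 CPM in the control libraries. The groups overlapped, since the first siPRMT1 library lay above the second control library. Its log2 fold change of -0.077 (SE 0.048) did not pass (adjusted p = 0.12), with a 95% interval from -0.17 to 0.017, but it passed when only library size was used for scaling (-0.39) and with the correction (-0.45). It also passed without siPRMT1 replicate 1 (adjusted p = 0.0472) or control replicate 2 (adjusted p = 0.0335).

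The ratio of METTL14 to METTL3 counts within a library does not depend on how libraries are scaled. It was 0.307, 0.316 and 0.299 in the siPRMT1 libraries and 0.949, 1.00 and 0.965 in the control libraries, a 3.16-fold lower ratio in siPRMT1 cells (log2 difference -1.66). The groups did not overlap, and the exact two-sided permutation test gave p = 0.1, the smallest that 3 against 3 libraries allow (Benjamini-Hochberg adjusted p = 0.112 over 9 ratios). With counts corrected for GC content and length, the log2 difference was -0.12. The canonical METTL14 transcript in GENCODE release 44 has a GC content of 38.3% over 6642 bases and that of METTL3 49.9% over 1980 bases.

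The regulatory subunits fell by smaller factors with TMM scaling, and VIRMA changed direction after the correction. VIRMA (ENSG00000164944; chromosome 8, 94487689 to 94553469, minus strand), a large scaffold protein, had 54.2, 53.2 and 49.9 CPM in the siPRMT1 libraries and 92.3, 94.9 and 94.7 CPM in the control libraries, without overlap. It fell 1.79-fold (log2 fold change -0.84, SE 0.035; adjusted p = 4.37e-86), but was higher after the correction for GC content and length (0.18, adjusted p = 7.10e-06). WTAP (ENSG00000146457; chromosome 6, 159725585 to 159755713, plus strand), which brings the catalytic pair to nuclear speckles, had 64.2, 63.3 and 57.2 CPM in the siPRMT1 libraries and 87.05, 86.8 and 83.3 CPM in the control libraries. The groups did not overlap, the third siPRMT1 library being the lowest. WTAP fell 1.39-fold (-0.47, SE 0.0345; adjusted p = 1.08e-36), and its corrected value was close to that (-0.45). The ratio of VIRMA to WTAP was 0.845, 0.841 and 0.874 in the siPRMT1 libraries and 1.06, 1.09 and 1.14 in the control libraries (exact p = 0.1, adjusted 0.112), with a log2 difference of -0.36 that became 0.63 after the correction.

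RBM15 (ENSG00000162775; chromosome 1, 110338506 to 110346677, plus strand), an adaptor with RNA recognition motifs and a PRMT1 substrate as protein, was among the less abundant members, with 185, 191 and 153 counts in the siPRMT1 libraries and 394, 334 and 321 in the control libraries. It had 11.5, 10.4 and 10.05 CPM in the siPRMT1 libraries and 18.0, 16.7 and 15.1 CPM in the control libraries. The groups did not overlap, and the first library was the highest in each. RBM15 fell 1.56-fold (log2 fold change -0.64, SE 0.0762; adjusted p = 5.25e-16), and the corrected fall was larger (-0.91). Its paralog RBM15B, which can take its place in the complex, moved the other way: it had 81.4 ± 2.21 CPM in siPRMT1 cells and 70.2 ± 0.425 CPM in control cells, and rose by a log2 fold change of 0.21, but was lower if library size alone set the scale (-0.11). Independently of scaling, the ratio of RBM15B to RBM15 was 7.29, 7.73 and 7.91 in the siPRMT1 libraries and 3.92, 4.17 and 4.65 in the control libraries, a log2 difference of 0.85 (exact p = 0.1, adjusted 0.112) and 1.17 after the correction.

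**Figure D2:**
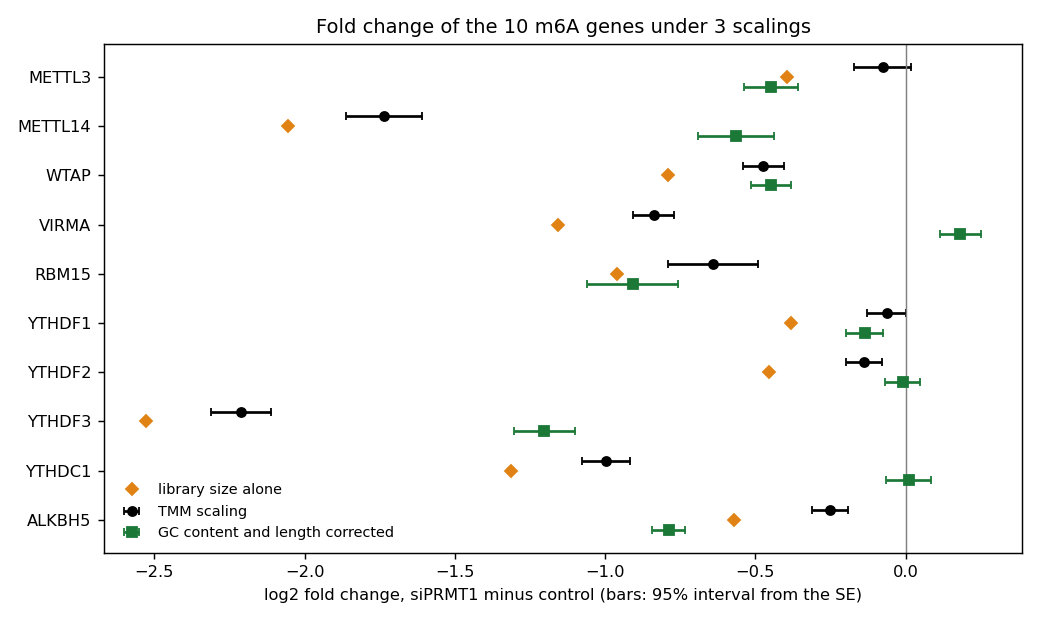
Log2 fold change (siPRMT1 minus control, horizontal axis) of the 10 genes with TMM scaling (circles), with library size alone (diamonds) and after the correction for GC content and length (squares); bars are 95% intervals from the SE. YTHDF3 and METTL14 lie lowest with TMM scaling, at -2.21 and -1.74, and YTHDF3 stays lowest after the correction, at -1.20, where VIRMA is above 0.

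The 3 cytoplasmic readers are close paralogs, and among them YTHDF3 had by far the largest fall. YTHDF3 (ENSG00000185728; chromosome 8, 63168553 to 63212785, plus strand), which acts with its paralogs on translation and decay, had 15.1, 13.5 and 15.5 CPM in the siPRMT1 libraries, from 244, 249 and 236 counts, against 66.3, 69.06 and 68.4 CPM in the control libraries, from 1453, 1382 and 1454 counts. Every siPRMT1 library lay far below every control library. YTHDF3 fell 4.63-fold, to 14.7 ± 1.04 CPM in siPRMT1 cells, against 67.9 ± 1.43 CPM in control cells (log2 fold change -2.21, SE 0.0509; adjusted p = 5.68e-176). A value at or below this was seen for 3.39% of all tested genes. The corrected log2 fold change was -1.20 (SE 0.0518; adjusted p = 2.60e-27), and 7.48% of all genes had a corrected value at or below it.

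YTHDF2 (ENSG00000198492; chromosome 1, 28736621 to 28769775, plus strand), which recruits the CCR4-NOT deadenylase to methylated transcripts, had 89.8, 89.6 and 89.9 CPM in the siPRMT1 libraries and 98.6, 94.8 and 102.8 CPM in the control libraries. The siPRMT1 libraries were nearly equal and lay below all controls. YTHDF2 fell by 0.14 on the log2 scale (SE 0.0306; adjusted p = 9.92e-06), which is 1.10-fold, and did not pass after the correction (-0.010, adjusted p = 0.775). YTHDF1 (ENSG00000149658; chromosome 20, 63195429 to 63216131, minus strand), reported to promote translation, had 76.5, 78.2 and 79.4 CPM in the siPRMT1 libraries and 82.2, 82.7 and 79.8 CPM in the control libraries. The groups lay side by side without overlap, but the log2 fold change of -0.064 (SE 0.0328) did not pass (adjusted p = 0.0571), with a 95% interval from -0.13 to 0.00. It passed after the correction (-0.14), and without control replicate 3 (-0.079, adjusted p = 0.0245).

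Ratios between the paralogs were taken within each library. YTHDF3 had 0.198, 0.174 and 0.196 counts for each count of YTHDF1 in the siPRMT1 libraries, against 0.807, 0.835 and 0.857 in the control libraries, a ratio 4.41-fold lower (log2 difference -2.14). Against YTHDF2, the YTHDF3 ratio was 0.169, 0.151 and 0.173 in the siPRMT1 libraries and 0.673, 0.729 and 0.666 in the control libraries, 4.20-fold lower (-2.07). Neither ratio overlapped between groups (exact p = 0.1, adjusted 0.112, for each), and the log2 differences were -1.06 and -1.19 after the correction. By contrast, the ratio of YTHDF2 to YTHDF1 was 1.17, 1.15 and 1.13 in the siPRMT1 libraries and 1.20, 1.15 and 1.29 in the control libraries, which overlap (log2 difference -0.073, exact p = 0.2; 0.13 after the correction).

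**Figure D3:**
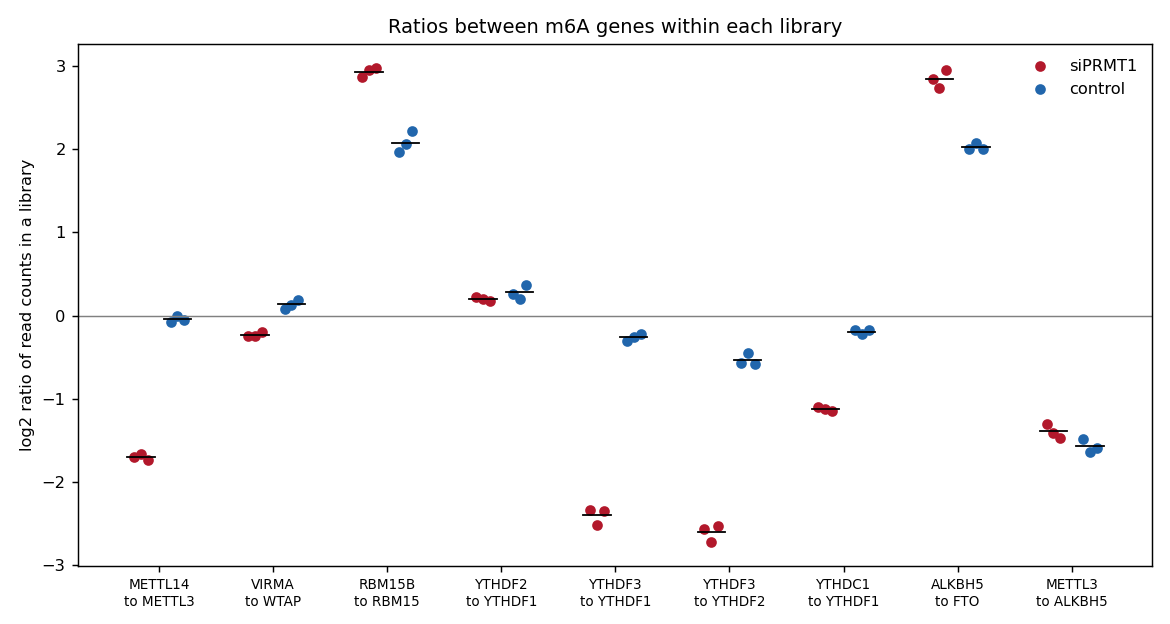
Log2 ratio of read counts between a pair of m6A genes within each library (vertical axis) for 9 pairs, with siPRMT1 libraries left of control libraries; lines are means. The groups are furthest apart for YTHDF3 to YTHDF1 (-2.14), YTHDF3 to YTHDF2 (-2.07) and METTL14 to METTL3 (-1.66), and overlap for YTHDF2 to YTHDF1.

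YTHDC1 (ENSG00000083896; chromosome 4, 68310387 to 68350090, minus strand), the nuclear reader, had 35.7, 36.0 and 35.6 CPM in the siPRMT1 libraries and 72.7, 70.9 and 70.6 CPM in the control libraries. Its replicates agreed closely and the groups did not overlap. YTHDC1 fell to 35.8 ± 0.173 CPM in siPRMT1 cells, against 71.4 ± 1.12 CPM in control cells (log2 fold change -0.997, SE 0.0404; adjusted p = 1.68e-89), but the difference was 0.010 after the correction for GC content and length (adjusted p = 0.822). The ratio of YTHDC1 to YTHDF1 was 0.467, 0.460 and 0.449 in the siPRMT1 libraries and 0.884, 0.857 and 0.884 in the control libraries (log2 difference -0.93, exact p = 0.1, adjusted 0.112), and the corrected log2 difference was 0.15.

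The eraser gene ALKBH5 (ENSG00000091542; chromosome 17, 18183078 to 18209954, plus strand) had 86.3, 87.4 and 90.7 CPM in the siPRMT1 libraries and 103.4, 104.2 and 107.1 CPM in the control libraries, without overlap. It fell 1.19-fold (log2 fold change -0.25, SE 0.0303; adjusted p = 1.11e-15), and the corrected fall was larger (-0.79). FTO, the other eraser gene, had 11.97, 13.1 and 11.6 CPM in the siPRMT1 libraries and 25.8, 24.6 and 26.6 CPM in the control libraries, and fell by 1.07 on the log2 scale, or by 0.19 after the correction. The ratio of ALKBH5 to FTO was 7.19, 6.68 and 7.78 in the siPRMT1 libraries and 4.0, 4.23 and 4.03 in the control libraries, a log2 difference of 0.82 (exact p = 0.1, adjusted 0.112) that was -0.59 after the correction. Between the catalytic writer gene and the eraser gene, the METTL3 to ALKBH5 ratio was 0.406, 0.375 and 0.360 in the siPRMT1 libraries and 0.357, 0.321 and 0.331 in the control libraries (log2 difference 0.18, exact p = 0.1, adjusted 0.112; 0.34 after the correction).

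To set the members beside each other, levels were divided by the gene length of the deposited table, giving CPM per kilobase. In siPRMT1 cells ALKBH5 (24.5 ± 0.629), YTHDF1 (24.3 ± 0.458) and YTHDF2 (24.1 ± 0.0436) were highest and overlapped with each other, followed by WTAP (9.60), METTL3 (5.71), YTHDC1 (5.08), VIRMA (4.87), YTHDF3 (2.39), RBM15 (2.28) and METTL14 (1.5). Of the lower 7, only YTHDF3 and RBM15 overlapped in siPRMT1 cells. In control cells ALKBH5 came first (29.1 ± 0.54), then YTHDF2 (26.5 ± 1.08) and YTHDF1 (25.4 ± 0.48), which overlapped, and then WTAP (13.4), YTHDF3 (10.8 to 11.2), YTHDC1 (10.2), VIRMA (8.72), METTL3 (6.01), METTL14 (5.01) and RBM15 (3.55). By the table's length YTHDF3 had rank 8 of 10 in siPRMT1 cells and rank 5 in control cells, and METTL3 had rank 5 in siPRMT1 cells and rank 8 in control cells. By the length of the canonical transcript YTHDF3 had rank 9 in siPRMT1 cells and rank 7 in control cells, while METTL3 had rank 5 in both. On that scale WTAP was highest in control cells (40.7) and YTHDF2 in siPRMT1 cells (32.7), and METTL14 was lowest in siPRMT1 cells on both scales.

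Another 36 genes of the pathway were listed by role, and 35 of them were tested; IGF2BP1, a reader gene, had at most 2 counts in any library. Of the 35, 21 fell, 13 rose and METTL16 did not pass (-0.011), though it was higher after the correction (0.52) and lower under library-size scaling (-0.33). These 35 had a median log2 fold change of -0.49, beside -0.008 for all tested genes, of which 45.0% were lower and 44.3% higher. After the correction the median was -0.15, with 21 lower and 13 higher. The corrected median of all tested genes was -0.048, with 42.7% lower and 37.5% higher. Under library-size scaling 27 were lower and 6 higher, where 55.4% of all tested genes were called lower. In the core complex, the zinc finger subunit gene ZC3H13 (-1.47, corrected -0.42) and CBLL1 (-1.02, corrected -0.15), which encodes the ligase-like subunit HAKAI, fell. RBM15B, also of the core complex, rose (0.21, corrected 0.27) but was lower with library size alone (-0.11). Among the core members, METTL3 did not pass with TMM scaling and VIRMA was higher after the correction. YTHDC2, a reader with a helicase domain, fell (-1.53, corrected -0.51). It had 17.6 ± 0.919 CPM in siPRMT1 cells and 50.8 ± 2.11 CPM in control cells.

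Enzymes that methylate adenosine in other settings went both ways. TRMT112, the shared activator of several methyltransferases, had 291.3 ± 4.90 CPM in siPRMT1 cells and 126.4 ± 4.59 CPM in control cells and rose (1.20, corrected 0.22), as did PCIF1, which methylates the adenosine next to the cap (1.03, corrected 0.24). METTL5, the partner of TRMT112 on 18S ribosomal RNA, rose by 0.32 but was lower after the correction (-0.083) and at -0.001 with library size alone. ZCCHC4 (-0.66, corrected -0.32), which methylates 28S ribosomal RNA, and METTL4 (-1.19, corrected -0.42) fell.

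Of 13 other genes reported as m6A readers or interpreters, 8 fell and 5 rose, beside 45.0% lower and 44.3% higher among all tested genes. Under library-size scaling 10 of them were lower and 2 higher, where 55.4% of all tested genes were called lower. EIF3A, a subunit of translation initiation factor eIF3, had 107.4 ± 4.38 CPM in siPRMT1 cells and 338.1 ± 9.10 CPM in control cells and fell (-1.65, corrected -0.78), whereas another subunit gene, EIF3H, rose (0.88, corrected 1.59). IGF2BP3 (-1.14, corrected -0.40), FMR1 (-1.10, corrected -0.24), ELAVL1 (-0.85, corrected -0.21) and PRRC2B (-0.49, corrected -0.32) fell, by less after the correction. FXR1 (-0.74, corrected 0.66) and HNRNPA2B1 (-0.45, corrected 0.33) fell but were higher after the correction. IGF2BP2 fell (-0.15), but did not pass after the correction (0.098, adjusted p = 0.0526) or without siPRMT1 replicate 2 (-0.11, adjusted p = 0.0638). RBMX rose (0.33, corrected 0.24) but did not pass under library-size scaling (0.012, adjusted p = 0.641). FXR2 rose (0.57) but was lower after the correction (-0.10). HNRNPC rose (0.097, corrected 0.67) but was lower with library size alone (-0.22), and PRRC2A rose (0.088) but was lower under library-size scaling (-0.23) and with the correction (-0.15). HNRNPC and HNRNPA2B1 belong to families with many processed copies in the genome, which can make their counts uncertain. Reads shared with such copies were not checked for these or any other genes.

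In the cycle that supplies S-adenosylmethionine, the methyl donor, MAT2B, the regulatory subunit gene of its synthetase, had 33.1 ± 2.20 CPM in siPRMT1 cells and 119.9 ± 0.917 CPM in control cells and fell (-1.86, corrected -1.54). The catalytic subunit gene MAT2A fell by 0.073, with 216.2 ± 4.82 CPM in siPRMT1 cells and 227.3 ± 5.03 CPM in control cells, and was higher after the correction (0.094). AHCY, which clears the by-product of methylation, rose (0.44) but was lower after the correction (-0.25). The AHCY-like gene AHCYL1, for which no part in the cycle is shown here, fell (-0.89, corrected -0.56). Among partners of the members, CNOT1, the deadenylase scaffold that YTHDF2 binds, fell (-1.11, corrected -0.25), as did CNOT4 (-0.58, corrected -0.18), the ligase gene linked to methylated RBM15, and RIDA (-0.86, corrected -0.84), whose protein bridges YTHDF2 to an endonuclease. SRSF10, a splicing partner of YTHDC1, fell (-1.04) but was higher after the correction (0.36). SRSF3, its other splicing partner, rose by 0.058 (corrected 0.87) but was lower with library size alone (-0.26), and did not pass with upper-quartile scaling (0.010, adjusted p = 0.611) or without control replicate 1 (0.049, adjusted p = 0.0568). UPF1 rose (0.13) but was lower under library-size scaling (-0.18) and with the correction (-0.20), and the export receptor gene NXF1 rose (0.42), by less after the correction (0.089) and under library-size scaling (0.11).

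**Figure D4:**
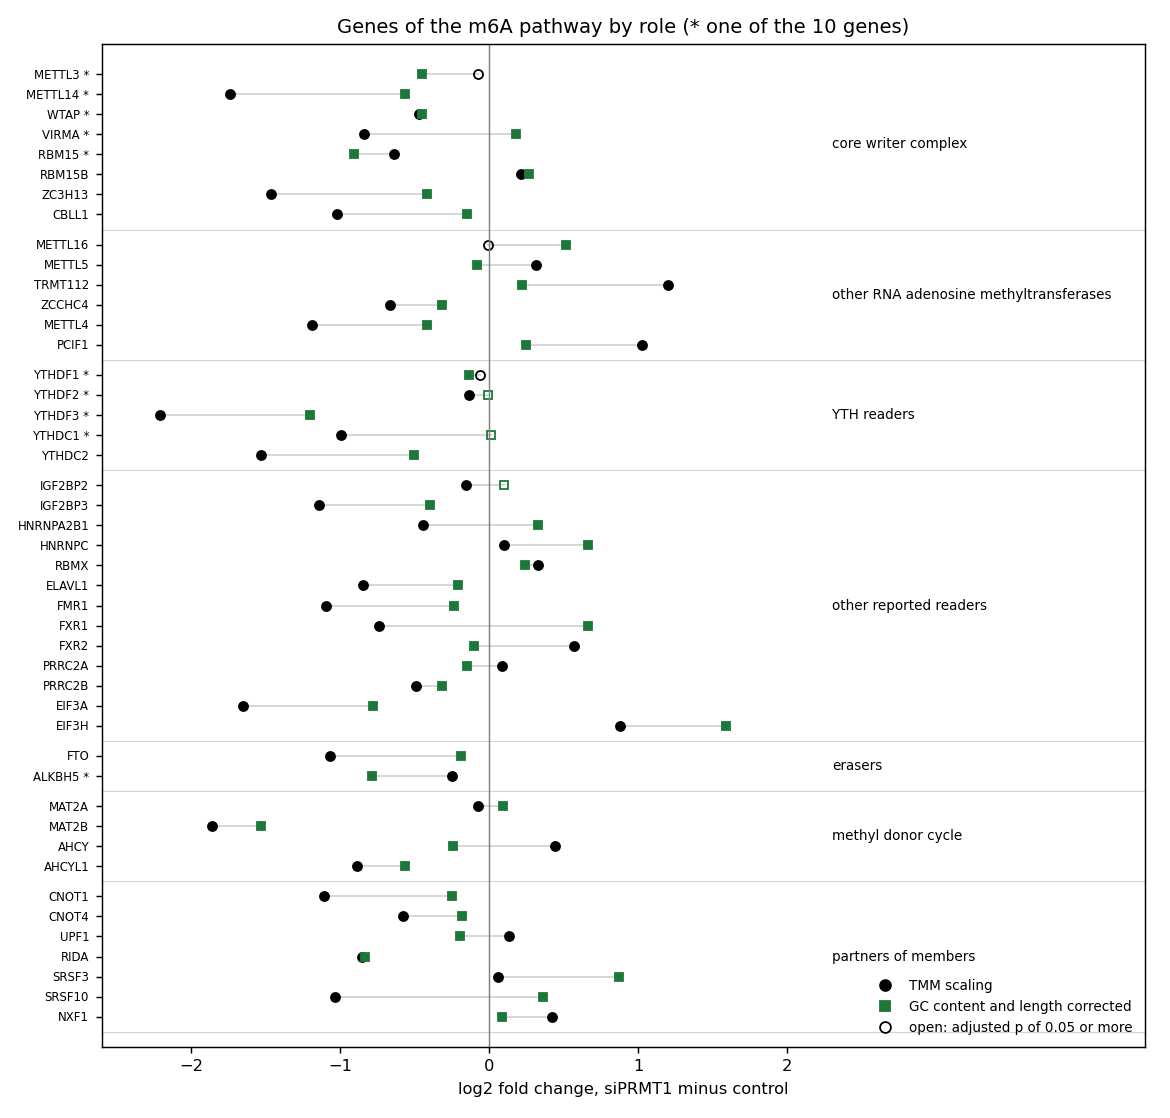
Log2 fold change (siPRMT1 minus control, horizontal axis) of the 45 tested genes of the m6A pathway, grouped by role, with TMM scaling (circles) and after the correction for GC content and length (squares); open symbols did not pass, and asterisks mark the 10 members. Falls outnumber rises with TMM scaling (29 against 13), beside 45.0% lower and 44.3% higher among all tested genes. After the correction 28 are lower and 14 higher, beside 42.7% lower and 37.5% higher among all tested genes. The corrected values lie nearer to 0 for most genes with large falls.

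The members differ in the sequence of their transcripts. YTHDF3 and METTL14, which fell most, have canonical transcripts of 38.4% and 38.3% GC over 5095 and 6642 bases, and YTHDC1 (40.3%, 6233 bases) and VIRMA (40.4%, 6478 bases) come next. METTL3 (49.9%, 1980 bases), YTHDF1 (50.9%, 3198 bases) and YTHDF2 (46.0%, 2744 bases) had the smallest changes with TMM scaling. The medians of all tested genes were 48.6% and 3253 bases, and the METTL3 transcript is the shortest of the 10. That of WTAP (44.2%, 2105 bases) is the next shortest, and WTAP fell with TMM scaling (-0.47). ALKBH5 (57.6%) and RBM15 (54.2%) have the highest GC content of the 10 and were lower than the median of genes in their range, which was 0.80 for 55% or more and 0.23 for 50% to 55%. GGACT, the core of many methylation sites, occurs 2.02 times per kilobase in the METTL3 transcript and 1.20 times in that of METTL14, but 0.39 times in YTHDF3 and 0.31 times in YTHDF1, beside a median of 0.92 over all tested genes.

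**Figure D5:**
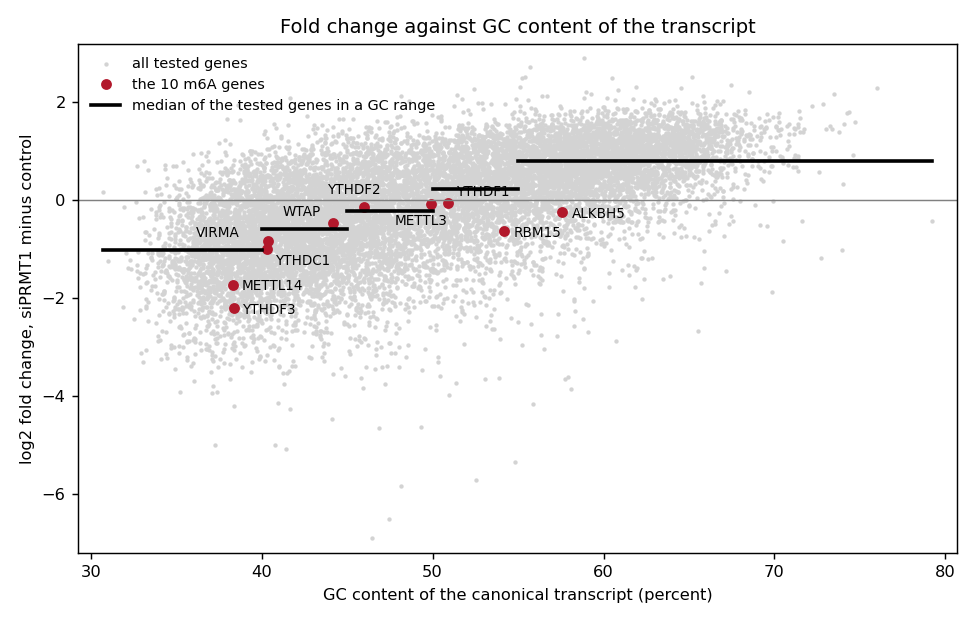
Log2 fold change (siPRMT1 minus control, vertical axis) against GC content of the canonical transcript (percent, horizontal axis) for all tested genes with a known GC content (grey) and the 10 members (red), with the median of the tested genes in each GC range (black lines, from -1.02 below 40% to 0.80 at 55% or more). WTAP, METTL3 and YTHDF2 lie above the median of their range, and the other 7 members below it.

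Exons of some members overlap exons of a gene on the opposite strand, and whether the counting used strand is not given. SOD2 shares 437 of the 6413 exonic bases of WTAP and itself fell (-1.54, corrected -0.36). TOX4 shares 388 of the 5861 exonic bases of METTL3 and rose (0.32, corrected 0.79), but did not pass under library-size scaling (0.001, adjusted p = 0.984). Non-coding antisense genes share 920 bases with YTHDF2, 357 with ALKBH5 and 175 with RBM15. METTL14, VIRMA, YTHDC1, YTHDF1 and YTHDF3 share none.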

How the data were processed

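The authors deposited raw counts per gene and sample, with gene lengths in bases, per the file headers. Per the labels' protocols, the libraries came from a kit that keeps strand and were sequenced from both ends (150 bases). Among the tools in the submitters' processing notes are STAR 2.7.6a with hg38, featureCounts with no version, Subread 1.5.1, fastp 0.23.2 and edgeR 3.40.2; their roles and order are not stated. No source used here gives the annotation release, the strand setting or the treatment of duplicates.

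After filterByExpr, edgeR 4.0.16 under R 4.3.3 compared the groups (TMM scaling, glmQLFit, glmQLFTest, Benjamini-Hochberg adjustment over 13710 genes, threshold 0.05). Log2 fold changes are siPRMT1 minus control, each SE is the log2 fold change over the square root of F, and 95% intervals are the SE-based normal intervals. The common dispersion was 9.77e-05, the lowest value of edgeR's search, so it is a floor. Replicates differed by slightly more than sampling noise (chi-square over degrees of freedom 1.045 to 1.38 within groups), and all 6 libraries were kept. The correction removed splines with 5 degrees of freedom on GC content and on length of the canonical transcript (GENCODE 44, known for 13694 tested genes), fitted per library to log2 CPM with a prior count of 2 and centred so that the scaling stayed. Ratios used counts plus 0.5 and an exact permutation test (scipy 1.17.1). The fit and the correction were run on simulated data with far fewer changed genes and a larger dispersion than here. That run does not show how they perform on these data.

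The named genes were PRMT1, the 10 members, and the other 36 listed genes by role; SOD2 and TOX4 were added because they overlap members. Members and lists were chosen with earlier results of these data known. Alternatives were other scalings, DESeq2 1.42.0, limma-voom (limma 3.58.1), other filters, the replicate number as a block, the correction, and leaving out each library.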

Additional observations from a re-analysis of the deposited data

How the results depend on the processing

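The number of members past the threshold was 8 with TMM scaling and 8 to 10 under the other settings tried, that of all listed pathway genes was 42 and 41 to 43, and that of all genes was 12243 and 11006 to 12532. Rises made up 49.6% of all calls, but 37.7% with library size alone. Leaving out each library in turn gave 8 to 9 members. Both genes that missed the threshold passed with upper-quartile scaling (METTL3 -0.13, YTHDF1 -0.11), with library size alone and after the correction. METTL3 also passed without siPRMT1 replicate 1 (-0.11) or control replicate 2 (-0.11), and YTHDF1 without control replicate 3 (-0.079), with no filter (-0.077) and with at least 1 CPM in 3 samples (-0.066); when single libraries were left out, METTL16 ranged between -0.058 and 0.033, changing sign without siPRMT1 replicate 2 (0.033) or control replicate 2 (0.008). Same-numbered libraries did not deviate together (correlations -0.025 to -0.0081). Replicates differed by little more than sampling noise, so these correlations cannot tell whether the numbers pair the samples. The replicate block left 8 members, 42 pathway genes and 12219 genes, and moved no listed gene across the threshold.

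Signs changed with library size alone for RBM15B (-0.11), METTL5 (-0.001), HNRNPC (-0.22), PRRC2A (-0.23), UPF1 (-0.18) and SRSF3 (-0.26). After the correction for GC content and length, and with the replicate block beside it in brackets, they changed for VIRMA (0.18 [0.18]), METTL16 (0.52 [0.52]), METTL5 (-0.083 [-0.085]), YTHDC1 (0.010 [0.010]), IGF2BP2 (0.098 [0.10]), HNRNPA2B1 (0.33 [0.33]), FXR1 (0.66 [0.66]), FXR2 (-0.10 [-0.10]), PRRC2A (-0.15 [-0.15]), MAT2A (0.094 [0.094]), AHCY (-0.25 [-0.25]), UPF1 (-0.20 [-0.20]) and SRSF10 (0.36 [0.37]). The corrected ratios changed sign for VIRMA to WTAP (0.63), YTHDF2 to YTHDF1 (0.13), YTHDC1 to YTHDF1 (0.15) and ALKBH5 to FTO (-0.59). The cause was not tested. Permutation p-values of the ratios cannot pass 0.05 in this design and say nothing about stability.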
